A study of Mus musculus with 8 samples.

Results

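The early genes described here are Egr1, Egr2, Egr3, Ier2, Ier3, Ier5, Nr4a1, Srf, Myc and Btg2, 10 of the 54532 genes in the count table, found by their symbols. They stand for the immediate-early response outside the AP-1 factors, and they were chosen by a rule that used their CPM in the WT and Gsdmd-/- libraries. The genotype differences of these 10 genes are therefore given as a description. Their p-values are not printed, and their calls at a threshold are part of that description. The libraries came from bone marrow-derived macrophages (BMDMs), macrophages that are grown in culture from marrow under the growth factor M-CSF. All BMDMs had been differentiated for 6 days and had received no treatment, and there were 4 libraries of wildtype (WT) and 4 of Gsdmd-/- cells, so the comparison asks how resting macrophages without Gsdmd differ from WT cells. The methods describe the BMDM donors as female C57BL/6J mice of 6 to 8 weeks, without saying whether the Gsdmd-/- donors matched these in strain, age and sex. The WT mice were bought, whereas the Gsdmd-/- mice were a gift and were kept in an animal facility of the authors' university, so genotype and colony cannot be told apart. Neither the labels nor the methods say that each library came from a separate mouse, and p-values then measure the spread between these libraries, which may be technical.

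Immediate-early genes are transcribed within minutes of a signal such as a growth factor, a cytokine or mechanical stress, without the need for new protein synthesis, and many of their mRNAs are quickly degraded again. Serum response factor (SRF), bound to CArG boxes in their promoters together with ETS-domain or MRTF cofactors, is a classical route from ERK and actin signaling to these genes. In the monocyte and macrophage lineage, EGR factors are known for their part in differentiation, and several immediate-early products restrain the inflammatory response that induced them.

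Total counts lay between 14935114 and 16794810 per library. Levels are given in CPM, the share of a gene in the counts of its library after TMM scaling. A count of 0 would allow up to 3 counts, or 0.177 to 0.199 CPM, for counting error only. Gsdmd, the deleted gene, was checked first. It had 1213, 1039, 1121 and 1570 counts in WT libraries 1 to 4 and 307, 243, 257 and 241 counts in Gsdmd-/- libraries 1 to 4, a log2 fold change of -2.22 ± 0.14 (SE, edgeR adjusted p = 4.67e-05). The 9 macrophage markers summed to between 15468 and 23597 CPM in WT and to between 19530 and 23518 CPM in Gsdmd-/- libraries. On the first principal component of all genes, which held 43.6% of the variance, WT 2 (45.4) and WT 3 (38.8) stood apart from the other 6 libraries (-25.9 to -7.19), and calls at the adjusted threshold that changed without both are given beside the results.

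All 10 early genes had enough counts to be tested among 12911 genes. The log2 fold change (Gsdmd-/- minus WT) was above 0 for 9 of the 10 genes, against 48.5% of all genes tested, and its median was 0.51, against -0.01 for all genes tested. At an adjusted p under 0.05, 3 of the 10 genes (Egr1, Ier2 and Myc) were called, all higher in Gsdmd-/- cells, where 0.349% of all genes tested were called, 0.139% higher and 0.209% lower. At the cutoff of the study, an unadjusted p under 0.05 joined to a log2 fold change of 0.5 or more in size, 5 were called (Egr1, Ier2, Ier3, Myc and Btg2), all higher. That cutoff called 4.83% of all genes tested, 1.54% higher and 3.28% lower. In the same 5 genes every Gsdmd-/- library lay above every WT library, which held for 3.48% of all genes tested, and in none of the 10 did every Gsdmd-/- library lie below, which held for 4.12%. Together, 7.6% of all genes tested did not overlap. These counts belong to the contrast from which the genes were proposed, and nothing is read from them. In such bulk samples, more cells that express a gene and more RNA per cell cannot be told apart.

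**Figure D1:**
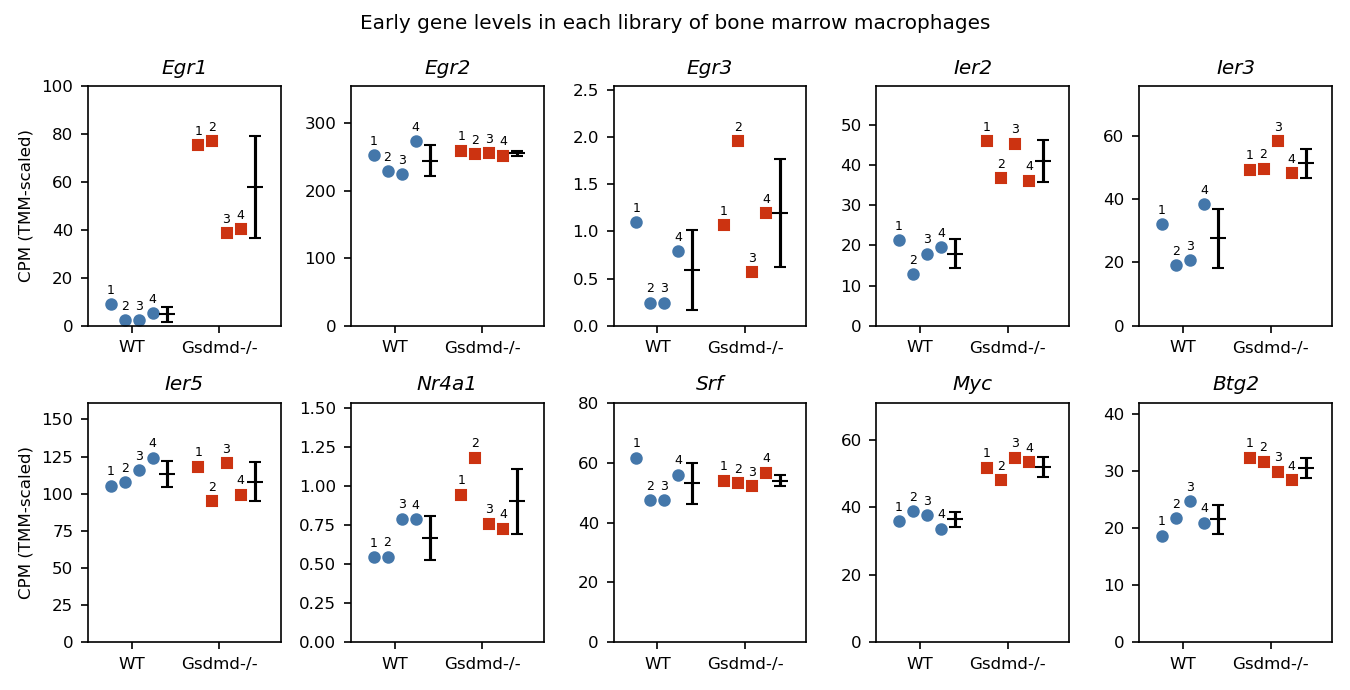
The level of each early gene in CPM (TMM-scaled, linear axes from 0, a scale of its own per gene) is plotted for the 4 WT (circles) and 4 Gsdmd-/- (squares) libraries, numbered by replicate, with the mean and SD as a bar beside them. In the panels of Egr1, Ier2, Ier3, Myc and Btg2 the genotypes do not overlap, and in the panels of the other 5 genes they do.

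Among the EGR zinc-finger transcription factors, Egr1 (ENSMUSG00000038418, chromosome 18 from 34859823 to 34864984 in GRCm38) differed most between the genotypes. Its counts were 148, 40, 39 and 88 in WT 1 to 4 and 1274, 1302, 608 and 610 in Gsdmd-/- 1 to 4, which is 9.01, 2.44, 2.38 and 5.36 CPM against 75.5, 77.0, 38.6 and 40.5 CPM. The lowest Gsdmd-/- library was thus above the highest WT library, and the libraries of each genotype fell into a higher and a lower pair. The mean was 4.80 ± 3.13 CPM in WT and 57.9 ± 21.2 CPM in Gsdmd-/- (SD, n = 4), 12.1-fold higher, with a log2 fold change of 3.59 ± 0.42 (SE). Its log2 fold change stayed between 3.01 (without both WT 2 and WT 3) and 4.09 (without WT 1) under the 16 alternative fits, among them each of the 8 that leave out 1 library.

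Egr2 (ENSMUSG00000037868, chromosome 10 from 67535475 to 67542188), the family member known from hindbrain and myelin development, was at 252, 229, 224 and 273 CPM in WT and at 259, 254, 255 and 252 CPM in Gsdmd-/- libraries. All 4 Gsdmd-/- libraries lay inside the WT range, and the means were 244.7 ± 22.5 and 255 ± 3.23 CPM (SD, n = 4), a log2 fold change of 0.06 ± 0.08 (SE) that was -0.04 without both WT 2 and WT 3. Egr3 (ENSMUSG00000033730, chromosome 14 from 70077203 to 70082614), a factor known from muscle spindles and lymphocytes, had only 18, 4, 4 and 13 counts in WT and 18, 33, 9 and 18 counts in Gsdmd-/- libraries. That is a sum of 39 (exact Poisson 95% interval 27.7 to 53.3) against 78 counts (61.7 to 97.3), where the intervals cover counting error only. Its level was 0.594 ± 0.422 against 1.20 ± 0.571 CPM (SD, n = 4), a log2 fold change of 1.00 ± 0.53 (SE), and the libraries of the genotypes overlapped. The difference of Egr3 rested on few reads and moved with single libraries, to a log2 fold change of 0.66 without Gsdmd-/- 2, 0.74 without WT 2, 0.75 without WT 3, 1.23 without Gsdmd-/- 3 and 1.48 without WT 1, and it was 0.34 without both WT 2 and WT 3.

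The EGR genes kept their order in both genotypes, but the distance between Egr2 and Egr1 differed. Per kilobase of exon, which allows levels to be compared between genes, Egr2 was at 72.0 ± 6.62 CPM in WT against 1.07 ± 0.698 CPM for Egr1, and at 75.1 ± 0.951 against 12.9 ± 4.73 CPM in Gsdmd-/- cells (SD, n = 4). On this scale Egr1 stood at percentile 20 of the genes tested in WT and at percentile 74.8 in Gsdmd-/- cells, while Egr2 stood at percentile 95.2 and 95.3. Egr3 was at 0.135 ± 0.0958 CPM per kilobase in WT and at 0.271 ± 0.130 in Gsdmd-/- cells.

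Of the IER genes, Ier2 (ENSMUSG00000053560, chromosome 8 from 84661331 to 84662852), which encodes a nuclear protein linked to growth control, was at 21.3, 12.9, 17.9 and 19.6 CPM in WT and at 45.9, 36.7, 45.3 and 36.1 CPM in Gsdmd-/- libraries. Every Gsdmd-/- library exceeded every WT library, with means of 41.0 ± 5.32 against 17.9 ± 3.63 CPM (SD, n = 4) and a log2 fold change of 1.19 ± 0.16 (SE). Its call at the adjusted threshold was lost without Gsdmd-/- 1, Gsdmd-/- 3 or WT 3, where the log2 fold change was 1.14, 1.14 and 1.19. Ier3 (ENSMUSG00000003541, chromosome 17 from 35821684 to 35822923), also called IEX-1 and known as an NF-kB target with a role in cell survival, was at 32.1, 19.1, 20.6 and 38.4 CPM in WT and at 49.3, 49.5, 58.2 and 48.2 CPM in Gsdmd-/- libraries. The groups did not overlap, and the means were 27.6 ± 9.25 and 51.3 ± 4.63 CPM (SD, n = 4), a log2 fold change of 0.90 ± 0.20 (SE). WT 2 and WT 3 were the lowest libraries of Ier3, and without both of them its log2 fold change was 0.54.

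Ier5 (ENSMUSG00000056708, chromosome 1 from 155096361 to 155099636), a co-factor of heat shock factor 1, was the early gene with a log2 fold change below 0. Its levels of 105, 108, 116 and 124 CPM in WT and 118, 94.8, 121 and 99.2 CPM in Gsdmd-/- libraries overlapped, at means of 113 ± 8.55 and 108 ± 13.1 CPM (SD, n = 4) and a log2 fold change of -0.07 ± 0.10 (SE). The differences of Ier2, Ier3 and Ier5 were thus 1.19, 0.90 and -0.07 on the log2 scale, and whether they differ from each other was not tested.

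Srf (ENSMUSG00000015605, chromosome 17 from 46548329 to 46556175), the factor that binds many of the promoters of this response, was at 61.6, 47.5, 47.4 and 55.9 CPM in WT and at 54.0, 53.1, 52.2 and 56.6 CPM in Gsdmd-/- libraries. The Gsdmd-/- libraries lay inside the WT range, and the log2 fold change was 0.02 ± 0.10 (SE), which turned to -0.03 without WT 2, to -0.03 without WT 3 and to -0.13 without both. Nr4a1 (ENSMUSG00000023034, chromosome 15 from 101254269 to 101274795), the orphan nuclear receptor NUR77 needed for Ly6C-low monocytes, had 9, 9, 13 and 13 counts in WT and 16, 20, 12 and 11 counts in Gsdmd-/- libraries. Its sums of 44 (32.0 to 59.1, exact Poisson 95% interval) and 59 counts (44.9 to 76.1) had overlapping intervals, which cover counting error only, and the libraries of the genotypes overlapped (log2 fold change 0.43 ± 0.30 (SE), and 0.27 without Gsdmd-/- 2).

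Myc (ENSMUSG00000022346, chromosome 15 from 61985391 to 61990374), the growth-promoting E-box factor, was at 35.8, 38.9, 37.7 and 33.7 CPM in WT and at 51.8, 48.1, 54.7 and 53.3 CPM in Gsdmd-/- libraries. The groups did not overlap, at 36.5 ± 2.27 against 52.0 ± 2.85 CPM (SD, n = 4), a log2 fold change of 0.51 ± 0.08 (SE). In the fits that leave out 1 library, Myc was called at the adjusted threshold in 1 of 8, the fit without WT 4, while its log2 fold change lay between 0.47 (without WT 4) and 0.54 (without Gsdmd-/- 2). Btg2 (ENSMUSG00000020423, chromosome 1 from 134075170 to 134079120), an anti-proliferative protein that p53 induces and that binds the mRNA deadenylation machinery, was at 18.7, 21.7, 24.7 and 20.9 CPM in WT and at 32.3, 31.6, 29.9 and 28.4 CPM in Gsdmd-/- libraries. Its means were 21.5 ± 2.50 and 30.5 ± 1.76 CPM (SD, n = 4), a log2 fold change of 0.51 ± 0.10 (SE), equal to that of Myc at 2 decimals. Without both WT 2 and WT 3, Btg2 was called at the adjusted threshold too, at 0.62. At the cutoff of the study, the call of Btg2 was lost without Gsdmd-/- 1, Gsdmd-/- 2, WT 1 or WT 4 (0.480, 0.485, 0.444 and 0.496). That of Myc was lost without Gsdmd-/- 3, Gsdmd-/- 4 or WT 4 (0.486, 0.495 and 0.474).

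**Figure D2:**
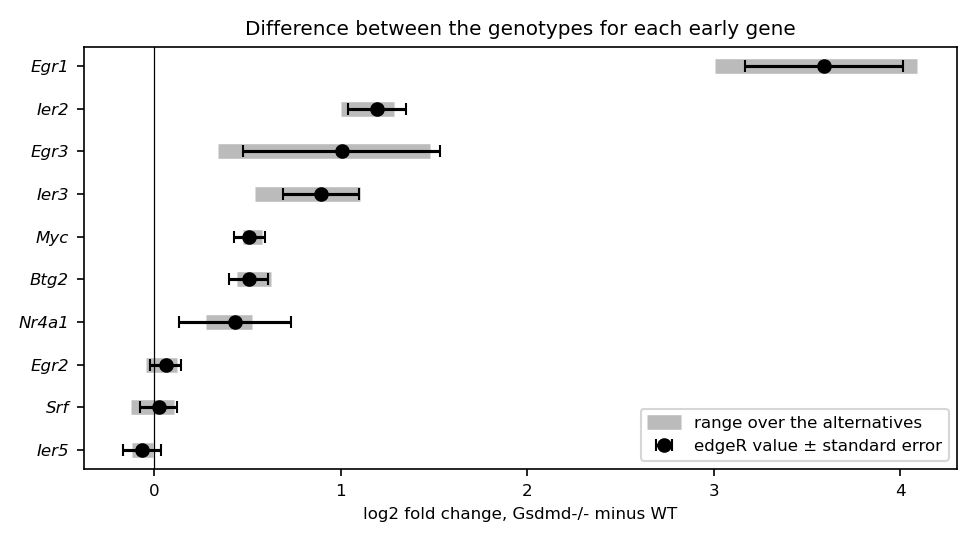
The log2 fold change (Gsdmd-/- minus WT) of each early gene is plotted as a point with its standard error from edgeR, over a grey bar that spans its values under the alternative fits. Egr1, at 3.59, lies far from the other genes, Ier2 and Ier3 follow with Egr3 between them, and the grey bars of Egr2 and Srf cross 0.

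The order of levels per kilobase of exon in WT cells was Egr2 (72.0 CPM), Ier5 (34.6), Ier3 (24.4), Srf (18.4), Myc (13.4), Ier2 (11.8), Btg2 (7.84), Egr1 (1.07), Nr4a1 (0.191) and Egr3 (0.135). In this order the ranges over the 4 libraries overlapped between Ier5 and Ier3, Ier3 and Srf, Myc and Ier2, Ier2 and Btg2, and Nr4a1 and Egr3. In Gsdmd-/- cells it was Egr2 (75.1 CPM), Ier3 (45.3), Ier5 (33), Ier2 (26.9), Myc (19.1), Srf (18.7), Egr1 (12.9), Btg2 (11.1), Egr3 (0.271) and Nr4a1 (0.258). There the ranges overlapped between Ier5 and Ier2, Myc and Srf, Egr1 and Btg2, and Egr3 and Nr4a1. The untreated macrophages of both genotypes thus held Egr2 as the most abundant of these mRNAs and hardly any Egr3 or Nr4a1.

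Within a genotype the early genes also varied, and not alike. The highest WT library exceeded the lowest by 4.48-fold for Egr3, 3.78-fold for Egr1 and 2.01-fold for Ier3, but by 1.22-fold for Egr2 and 1.15-fold for Myc. In 6 of the 10 genes (Egr1, Egr2, Egr3, Ier2, Ier3 and Srf) WT 2 and WT 3 were both below WT 1 and WT 4, as in 28.7% of all genes tested. In Myc and Btg2 they were both above, as in 29.4% of all genes. In Gsdmd-/- libraries, replicates 1 and 2 were both above 3 and 4 for 3 genes (Egr1, Nr4a1 and Btg2), as in 14.9% of all genes.

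The sum of the 4 monocyte markers moved with this split of the WT libraries, with 3 markers lower and 1 higher in both WT 2 and WT 3. They summed to 47.8 and 44.9 CPM in WT 1 and WT 4 but to 5.01 and 4.09 CPM in WT 2 and WT 3, and to between 20.6 and 27.2 CPM in Gsdmd-/- libraries, with Ly6c2, a marker of classical monocytes, at 35.5, 1.53, 0.427 and 30.3 CPM in WT 1 to 4. The 9 macrophage markers summed to 21404 and 23597 CPM in WT 1 and WT 4 and to 15468 and 17366 CPM in WT 2 and WT 3. Most of this sum was Lyz2 (18106, 12999, 14831 and 20249 CPM in WT 1 to 4). WT 2 and WT 3 were both below WT 1 and WT 4 for 7 of the 9 markers and both above for 2, Adgre1 (291, 319, 326 and 277 CPM) and Mertk (141, 250, 212 and 101 CPM). Mitochondrially encoded genes held 1.95% and 1.67% of the counts of WT 1 and WT 4, 2.52% and 2.53% of those of WT 2 and WT 3, and 2.16% to 2.34% of those of the Gsdmd-/- libraries. The part of these in the early gene levels was not tested. Without both WT 2 and WT 3, the log2 fold changes were 3.01 for Egr1, 1.00 for Ier2, 0.54 for Ier3, 0.58 for Myc and 0.62 for Btg2, so the difference was smaller for the first 3 genes and larger for the last 2.

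Of 44 markers of other cell types the culture could hold, 11 had enough counts to be tested, none of them lymphoid or erythroid, and of these none passed the adjusted threshold in edgeR, limma voom or DESeq2. The endothelial marker Cdh5, with an unadjusted p under 0.05, was lower at the cutoff of the study. The 8 neutrophil markers summed to 4.63 to 6.66 CPM in WT and 6.04 to 6.98 CPM in Gsdmd-/- libraries, with Ly6g at 0 counts in all of them. The 7 lymphoid markers reached at most 1.22 CPM, with Ncr1 at 0. The 6 dendritic cell markers summed to 3.30 to 4.99 against 2.31 to 3.68 CPM, with Siglech at 0, and the 6 stromal markers to 1.59 to 4.38 against 1.95 to 2.54 CPM. The 4 erythroid markers reached at most 0.365 CPM, and the 4 megakaryocyte markers summed to 8.0 to 29.5 against 11.9 to 17.9 CPM. The sums of the 5 mast cell markers (10.5 to 71.9 against 46.3 to 67.8 CPM, mostly Kit) and of the 4 endothelial markers (28.8 to 69.4 against 49.0 to 81.0 CPM, mostly Kdr) were also lowest in WT 2 and WT 3, as were those of the stromal and megakaryocyte markers. The single endothelial markers differed in this, since Cdh5 was at 3.71, 5.38, 5.86 and 5.78 CPM and Tie1 at 0.122, 1.89, 1.83 and 0.183 CPM in WT 1 to 4.

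After each gene was centred on its genotype mean, which takes the genotype difference out, the log2 CPM of Egr1 was most like that of Egr3 (Pearson r = 0.89 over the 8 libraries), that of Egr2 most like that of Ier3 (0.94), that of Ier2 most like that of Ier3 (0.72) and that of Srf most like that of Egr3 (0.82). Nr4a1 was nearest to Btg2 (0.64) and Ier5 to Ier2 (0.53). Myc was nearest to Ier5, at only 0.13, and ran most against Egr3 (-0.83). Srf and Btg2 ran against each other (-0.82). Without both WT 2 and WT 3, over 6 libraries, r was 0.70 for Egr1 and Egr3, 0.63 for Egr2 and Ier3, 0.27 for Ier2 and Ier3, 0.38 for Srf and Egr3, 0.87 for Nr4a1 and Btg2, 0.70 for Ier5 and Ier2, 0.31 for Myc and Ier5, -0.69 for Myc and Egr3 and -0.75 for Srf and Btg2. Nearest genes and signs changed too. Egr2 and Srf went from 0.73 to -0.81, and Myc was then nearest to Ier2 (0.51, from -0.33), followed by Srf (0.40, from -0.50), and ran most against Nr4a1 (-0.96, from -0.68). These values describe 8 or 6 points that share libraries and depth, and those of Egr3 and Nr4a1 rest on few counts.

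**Figure D3:**
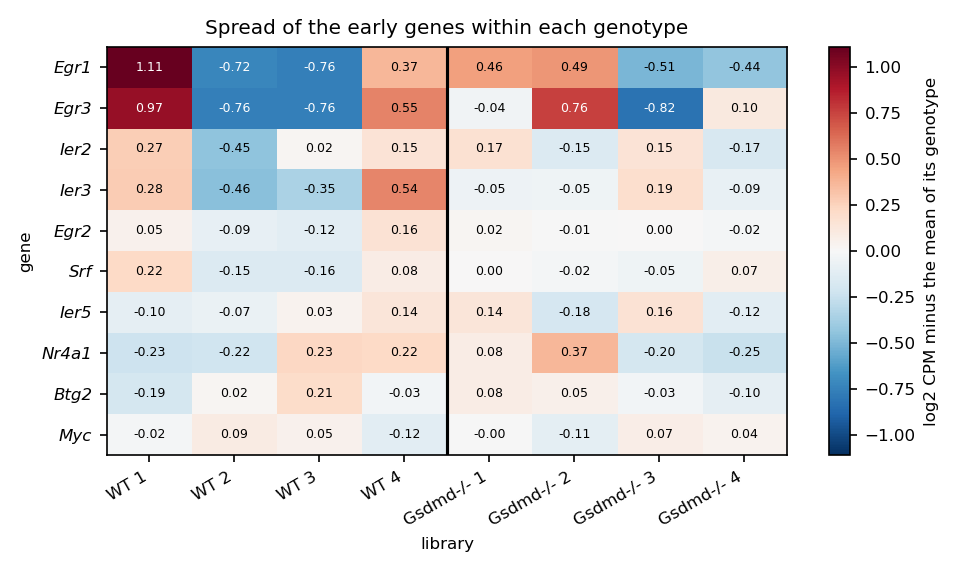
Each cell gives the log2 CPM of an early gene in a library minus the mean of that gene in the same genotype, with red above and blue below the mean. Egr1 ranges from -0.76 to 1.11 and Egr3 from -0.82 to 0.97, whereas Myc stays between -0.12 and 0.09.

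Over all 8 libraries, genotype difference included, the genes with the log2 CPM most like that of Egr1 were Apol8 (r = 0.986), Dusp1 (0.983), Pim1 (0.981), Gm17494 (0.979) and Cab39 (0.977). Apol8, an apolipoprotein L gene, had only 8 counts in the 4 WT and 83 in the 4 Gsdmd-/- libraries. It lies on chromosome 15 from 77747798 to 77757003, near the deleted gene Gsdmd (chromosome 15 from 75862327 to 75867408). Myc and Nr4a1 are on chromosome 15 too. The part of this position in the genotype differences was not tested. The kinase gene Pim1 had 217 ± 14.2 CPM in WT and 312 ± 15.2 CPM in Gsdmd-/- cells (SD, n = 4), and Cab39 at 201 ± 6.69 and 233 ± 4.65 CPM. Since each r includes the step between the genotypes, it is a description of these 8 libraries.

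The early genes share a compact structure that their choice did not use. They span a median of 5073 bases, against 20387 bases for the genes tested, and 9 of the 10 are shorter than that gene median, Nr4a1 (20527 bases) being the exception. They have a median of 2 exons, against 9 for the genes tested with a coding transcript, and all 10 lie below that median. Of the 3282 genes tested that span at most 7847 bases, the length of Srf, 2.83% were called higher and 3.44% lower at the cutoff of the study, and their median log2 fold change was 0.03.

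The pentamer ATTTA, the core of the AU-rich elements through which proteins such as ZFP36 direct mRNA decay, was found in the 3′UTR of 9 of the 10 early genes and in 66.7% of 11293 genes tested. Ier2 had none. Its median density was 2.39 per kilobase of 3′UTR in the early genes, against 1.24 in all these genes, and it reached 8.16 in Ier3 and 5.52 in Nr4a1. The 30 bases with the most ATTTA of the 3′UTR are shown for 2 genes that were higher in Gsdmd-/- cells without overlap (Ier3 and Btg2) and for 2 whose genotypes overlapped (Nr4a1 and Srf), 5′ to 3′ on the strand of the mRNA (GENCODE M21), with ATTTA in capitals.
Ier3: ctccgtgtctaattaatATTTAtgtATTTA
Btg2: aaATTTAtttgtagatgtgtgcaatATTTA
Nr4a1: gATTTAtatttgtgtattttcctggATTTA
Srf: gacggcccaagggacggcaccacttATTTA
Ier3, Btg2 and Nr4a1 each hold 2 copies in these bases and Srf holds 1, so copies were present both in genes whose genotypes did not overlap and in genes whose genotypes did.

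Promoter sequences from RefSeq (GRCm38.p6) were matched for 6 of the 10 early genes: Btg2, Egr2, Ier3, Ier5, Nr4a1 and Srf. The 250 bases before each start were searched on both strands for sequence motifs of factors that act in this response. The windows of Btg2 and Ier3, which did not overlap between the genotypes, and of Srf and Egr2, which did, are printed 5′ to 3′ on the strand of the gene, with the CArG box, the CRE core TGACG (or its complement CGTCA), the EGR site GCGNGGGCG and the NF-kB consensus in capitals. They lie at chr1:134079156-134079405 (minus strand) for Btg2, chr17:35821463-35821712 (plus strand) for Ier3, chr17:46556163-46556412 (minus strand) for Srf and, for the most downstream of the 5 listed starts of Egr2, chr10:67537680-67537929 (plus strand).
Btg2: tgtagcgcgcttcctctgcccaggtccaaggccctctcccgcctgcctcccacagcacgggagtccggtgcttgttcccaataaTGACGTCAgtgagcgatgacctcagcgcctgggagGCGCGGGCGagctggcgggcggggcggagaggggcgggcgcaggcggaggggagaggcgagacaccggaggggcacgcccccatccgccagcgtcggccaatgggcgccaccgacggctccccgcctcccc
Ier3: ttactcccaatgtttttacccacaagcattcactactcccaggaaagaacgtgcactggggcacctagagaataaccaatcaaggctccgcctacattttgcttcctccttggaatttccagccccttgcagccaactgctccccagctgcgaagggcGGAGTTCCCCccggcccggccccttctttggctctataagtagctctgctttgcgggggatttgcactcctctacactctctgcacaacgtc
Srf: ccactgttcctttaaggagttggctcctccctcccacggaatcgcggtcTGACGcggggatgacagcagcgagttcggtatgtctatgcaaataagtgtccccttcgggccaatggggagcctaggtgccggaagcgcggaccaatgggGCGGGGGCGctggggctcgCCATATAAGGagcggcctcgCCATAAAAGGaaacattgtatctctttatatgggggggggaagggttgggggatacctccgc
Egr2: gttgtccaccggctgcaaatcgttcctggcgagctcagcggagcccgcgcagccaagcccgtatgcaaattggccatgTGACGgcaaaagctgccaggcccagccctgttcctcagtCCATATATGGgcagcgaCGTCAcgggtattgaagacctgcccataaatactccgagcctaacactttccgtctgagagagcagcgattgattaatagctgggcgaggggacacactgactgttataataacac
The Srf window holds 2 CArG boxes, an EGR site and a CRE core, and the Egr2 window holds 1 CArG box and 2 CRE cores. The Btg2 window holds a full CRE (TGACGTCA, which contains the CRE core on both strands) and an EGR site, and the Ier3 window holds an NF-kB consensus.

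A CArG box was found in 2 of the 6 early genes with a promoter (Egr2 and Srf) and in 1.62% of 27025 genes with a RefSeq promoter, or 1.25% of the 9378 of them that were tested. The EGR site was found in 3 of 6 (Nr4a1, Srf and Btg2), in 5.33% of all these genes and in 10.2% of those tested. The CRE core was found in 4 of 6 (Egr2, Nr4a1, Srf and Btg2), in 19.8% of all and in 30.9% of those tested, and the full CRE in 1 of 6 (Btg2), in 1.77% and in 3.06%. The ETS core CCGGAA was found in 3 of 6 (Egr2, Nr4a1 and Srf), in 13.6% of all and in 26.5% of those tested, and the E-box CACGTG in 1 of 6 (Egr2), in 6.86% and in 10.2%. The NF-kB consensus was found in 1 of 6 (Ier3), in 4.46% of all and in 5.32% of those tested, and the AP-1 site TGANTCA in 0 of 6, in 7.82% and in 5.56%. A gene counted where any of its listed starts held a match, over 32851 windows for the 27025 genes. Egr2 has several listed starts, and its E-box and ETS cores lay before starts whose windows are not printed. Egr1, Egr3, Ier2 and Myc were not searched here. A match is a description of the letters in these windows and not of a bound site.

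Related genes were examined through 9 lists, written with the levels of some of their genes known. Of 163 genes tested in these lists outside the early genes, 5 passed an adjusted p under 0.05 (edgeR), all higher in Gsdmd-/- cells, against 0.349% of all genes tested in either direction. All 5 were themselves immediate-early genes. In edgeR, 4 of the 38 tested genes of the list of other immediate-early genes passed the adjusted threshold higher and none lower. At the cutoff of the study 4 were called higher and 2 lower (1.54% and 3.28% of all genes tested). Every Gsdmd-/- library lay above every WT library in 6 of the 38 and below in 6 (3.48% and 4.12% of all genes tested). The median of the list was 0.05 (-0.13 without both WT 2 and WT 3). Zfp36, which encodes the decay factor that binds AU-rich elements, rose from 99.2 ± 7.71 to 194.6 ± 11.7 CPM (log2 fold change 0.97 ± 0.09 (SE), adjusted p = 0.00082). Dusp1, the MAPK phosphatase that restrains p38 and JNK, rose from 54.5 ± 6.89 to 124.5 ± 15.3 CPM (1.19 ± 0.12 (SE), adjusted p = 0.00178). Klf2, a transcription factor that restrains myeloid activation, rose from 8.31 ± 1.35 to 15.6 ± 1.26 CPM (0.91 ± 0.14 (SE), adjusted p = 0.0302), and Sgk1, a serum- and glucocorticoid-induced kinase, from 329.9 ± 4.59 to 443.6 ± 23.0 CPM (0.43 ± 0.07 (SE), adjusted p = 0.0468). These are means ± SD with n = 4 each. Zfp36 and Dusp1 were called in all 16 alternative fits, whereas Klf2 was lost when any 1 of the 4 Gsdmd-/- libraries, WT 2 or WT 3 was left out (adjusted p 0.0159 to 0.153 over the 8 fits that leave out 1 library) and Sgk1 in all 8 of these fits (adjusted p 0.0506 to 0.235). Without both WT 2 and WT 3, Sgk1 was lost as well and Klf2 was called (adjusted p = 0.0327). With the replicate block both Klf2 (adjusted p = 0.0578) and Sgk1 were lost. Sgk1 was also lost where at least 10 counts in every library were required.

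With DESeq2, 6 genes of this list passed, 5 higher and 1 lower. The further genes were Mcl1 (0.23) and Atf3 (-0.54), a stress-induced repressor, both named after their values were seen (DESeq2 adjusted p = 0.0292 and 0.0153; edgeR adjusted p = 0.264 and 0.165). Over all 9 lists DESeq2 called 15 of the 163 genes, 8 higher and 7 lower, where it called 2.26% of all genes tested, 0.813% higher and 1.45% lower. The cutoff of the study called 16 of the 163, 7 higher and 9 lower, against 4.83% of all genes tested, 1.54% higher and 3.28% lower. Tnfaip3, the A20 inhibitor of NF-kB, was at -0.55 on the log2 scale (adjusted p = 0.319) with all libraries and at -0.92 without both WT 2 and WT 3 (adjusted p = 0.00183). Nr4a2, a relative of Nr4a1, was at -0.72 (adjusted p = 0.432). Nfkbiz, an NF-kB co-factor named after its value was seen, was at 0.87 (adjusted p = 0.365). Of the 6 AP-1 genes tested, Fos rose from 52.0 ± 7.92 to 114 ± 15.8 CPM (SD, n = 4), by 1.13 ± 0.13 (SE) on the log2 scale (adjusted p = 0.00590), and was called in all 16 alternative fits. Junb was at 0.53 (adjusted p = 0.0751), Jun at -0.58 (adjusted p = 0.134) and Fosl1 at -0.65 (adjusted p = 0.399), and the median of the 6 was -0.09 (0.17 without both WT 2 and WT 3). With DESeq2, Fos, Junb (adjusted p = 0.000485) and Jun (adjusted p = 0.00988) passed, the last of them lower, and in edgeR Junb passed without a filter (adjusted p = 0.0216) and without WT 4 (0.0450).

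With all libraries, no gene of the lists around SRF passed the adjusted threshold in edgeR, limma voom or DESeq2. Of 7 SRF cofactors and EGR corepressors, with a median of 0.03, 1 had an unadjusted p under 0.05, as 12% of all genes tested did. Nab2, the corepressor of EGR factors that EGR1 itself induces, was at 18.1, 34.3, 34.0 and 20.4 CPM in WT 1 to 4 and at a mean of 34.7 CPM in Gsdmd-/- cells (log2 fold change 0.38, adjusted p = 0.503). It split the WT libraries, and without both WT 2 and WT 3 it was at 0.85 (adjusted p = 0.00893). The ternary complex factor Elk3 was at 0.19 (adjusted p = 0.606). The MRTF genes Mkl1 and Mkl2 had -0.35 (adjusted p = 0.274) and -0.05 (adjusted p = 0.929). Of 17 SRF and MRTF target genes of the cytoskeleton, with a median of 0.03 (-0.17 without both WT 2 and WT 3), 1 had an unadjusted p under 0.05. Among those of at least 1 CPM, the extremes were Tpm4 (0.32, adjusted p = 0.518) and Tpm1 (0.14, adjusted p = 0.505) at the upper end and Filip1l (-0.54, adjusted p = 0.272; without both WT 2 and WT 3 -0.81, adjusted p = 0.0263) and Myh9 (-0.24, adjusted p = 0.490) at the lower end.

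Nor did any of the 9 tested partners in the MYC, MAX and MXD network pass in edgeR, limma voom or DESeq2, and none had an unadjusted p under 0.05. Their median was 0.02, and among those of at least 1 CPM the log2 fold changes lay between -0.13 for Mnt (adjusted p = 0.662) and 0.10 for Mxi1 (adjusted p = 0.786), with Mxd4 at -0.09 (adjusted p = 0.873) and Mlx at 0.08 (adjusted p = 0.816). Of 33 MYC target genes, with a median of 0.05, none passed in the filtered edgeR fit or limma voom, 5 had an unadjusted p under 0.05 (12% of all genes tested) and Ccnd2 passed in DESeq2 (2.26% of all). The median was -0.10 without both WT 2 and WT 3. The D-type cyclin gene Ccnd2 was at 23.8 and 13.0 CPM (log2 fold change -0.87, adjusted p = 0.0681; adjusted p = 0.0124 in edgeR without a filter and 0.0128 without WT 4), the transferrin receptor gene Tfrc had -0.43 (adjusted p = 0.399), and Eif4e and Cdk4 had 0.31 (adjusted p = 0.351) and 0.30 (adjusted p = 0.378).

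Of 24 genes of the ERK pathway and its feedback, which carries growth factor signals to many immediate-early genes, none passed in the filtered edgeR fit or limma voom with all libraries and 4 had an unadjusted p under 0.05 (12% of all genes tested), with a median of -0.03. In DESeq2, which called 2.26% of all genes, 4 passed, namely Rps6ka2, Etv5 and, named after their values were seen, Rps6ka1 and Spred1, and Spred1 passed in edgeR without both WT 2 and WT 3 (-0.64, adjusted p = 0.0278). In edgeR, Rps6ka2 also passed without a filter (adjusted p = 0.0216) and without WT 1 (0.0450), and Etv5 without a filter (0.0399) and without Gsdmd-/- 4 (0.0444). Rps6ka2, an ERK-activated kinase, showed a log2 fold change of 0.72 (adjusted p = 0.115), Etv5, an ETS factor induced by ERK signaling, one of -0.63 (adjusted p = 0.0836), Spred3 one of -0.55 (adjusted p = 0.509) and Nras one of 0.21 (adjusted p = 0.458). Of 19 p53 target genes, none passed in edgeR or limma voom with all libraries, 5 had an unadjusted p under 0.05 (12% of all genes tested) and Aen, named after its value was seen, passed in DESeq2 (2.26% of all), with a median of 0.08. Gdf15 had 0.38 (adjusted p = 0.471), Sesn1 0.27 (adjusted p = 0.541), Pmaip1 -0.47 (adjusted p = 0.336) and Eda2r -0.56 (adjusted p = 0.408). Without both WT 2 and WT 3, Gdf15 was at 0.79 (adjusted p = 0.0196) and Sesn1 at 0.60 (adjusted p = 0.0272). Of 11 heat shock genes, with a median of -0.13 (0.01 without both WT 2 and WT 3), none passed in any of these tools and none had an unadjusted p under 0.05. Dnaja1 and Hsp90aa1 were each at 0.10 (adjusted p = 0.744 and 0.713), Hsph1 one of -0.28 (adjusted p = 0.486) and Bag3 one of -0.34 (adjusted p = 0.536).

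**Figure D4:**
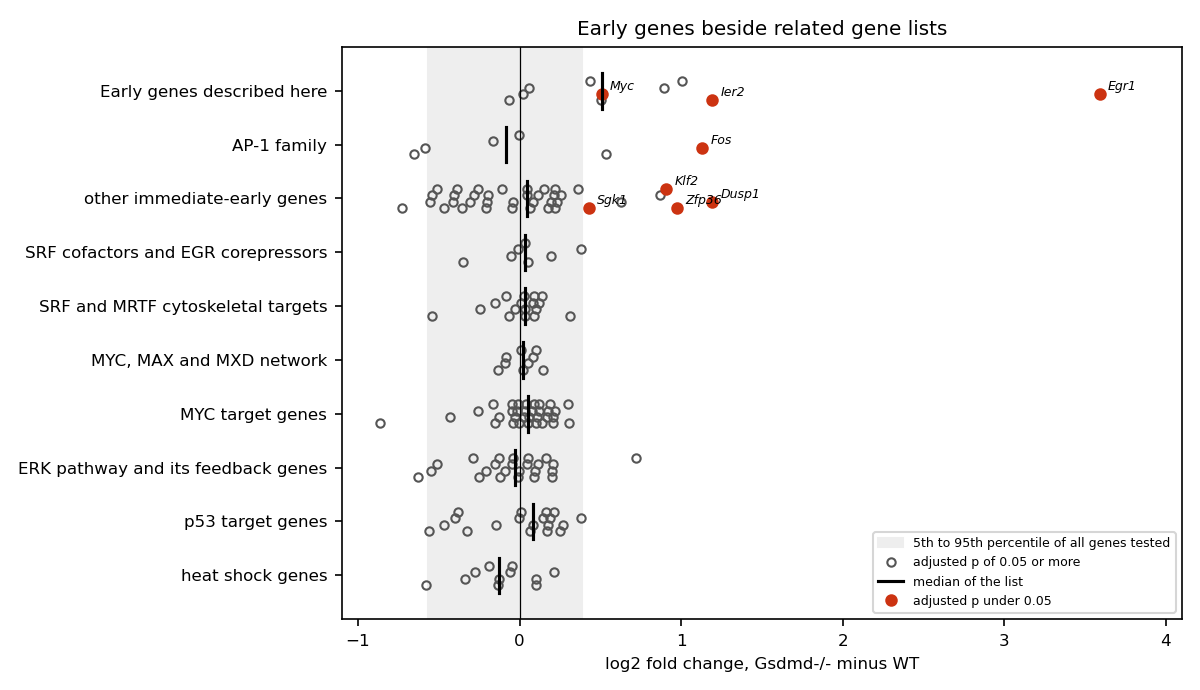
The log2 fold change (Gsdmd-/- minus WT) of every tested gene is plotted for the early genes and for the 9 related lists, filled in red where the adjusted p was under 0.05, with a black line at each median. The grey band runs from the 5th to the 95th percentile of all genes tested (-0.57 to 0.39), and the filled points outside the early genes are Fos, Zfp36, Dusp1, Klf2 and Sgk1.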

How the data were processed

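RNA from untreated BMDMs was sequenced in 4 WT and 4 Gsdmd-/- libraries, prepared with a TruSeq kit from total RNA. The authors deposited 1 table of counts, the number of reads per gene in each library, not normalized. The submitters' processing notes name the build mm10. The aligner, the counting tool, the annotation and the strand setting are not given in the sources used here. Positions, exon lengths and 3′UTRs were taken from GENCODE M21 (GRCm38), and promoters from RefSeq.

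Genes were filtered with filterByExpr and scaled by TMM in edgeR 4.0.16 (R 4.3.3), and genotypes were compared by its quasi-likelihood test, two-sided, with Benjamini-Hochberg adjustment over 12911 genes. The methods of the study name limma, and the legend of its volcano plot names edgeR. A prior count of 2 was used for log2 CPM. The fits were first tested on simulated data. As alternatives, limma voom (3.58.1), DESeq2 (1.42.0), RLE and upper-quartile scaling, testing without a filter, a minimum of 10 counts per library, a replicate block and leaving out each library were tried, and leaving out WT 2 and WT 3 together was added after the data had been seen.

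The early genes and the lists were chosen with earlier results of these data known. Genes outside the early genes were named where an adjusted p was under 0.05, and, among genes of at least 1 CPM, for the 2 highest and 2 lowest log2 fold changes of each list. For Egr1 the 5 genes with the highest Pearson r were named, and for each early gene the nearest early gene within genotype.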

Additional observations from a re-analysis of the deposited data

Results flagged for a closer look

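Ier3 was at 58.2 CPM in Gsdmd-/- 3, against 48.2 to 49.5 CPM in the other 3 Gsdmd-/- libraries, a gap to the nearest library of 0.866 of the range of the group, which is over the limit of Dixon's test for 4 samples. The early genes and the other genes checked gave 26 groups of 4 libraries, of which chance flags about 1 in 20. Without Gsdmd-/- 3 the log2 fold change of Ier3 was 0.83, against 0.90 with it.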

How the results depend on the processing

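The number of early genes called at an adjusted p under 0.05 (3) was 5 with DESeq2 and between 1 and 4 when 1 library was left out; it was 1 (Egr1) without Gsdmd-/- 1, Gsdmd-/- 3 or WT 3. The number at the cutoff of the study (5) was between 3 and 5 when 1 library was left out, with 3 without WT 4, and 6 without a filter, which added Egr3. Egr3 was also among the 5 without WT 1, where Btg2 was lost, and without Gsdmd-/- 3, where Myc was lost. The share of all tested genes at that cutoff (4.83%) was 7.79% without WT 4. The number of related list genes called at an adjusted p under 0.05 (5) was 15 with DESeq2, 9 without a filter, 10 without both WT 2 and WT 3, and between 3 and 6 when 1 library was left out; it was 3 without Gsdmd-/- 1, Gsdmd-/- 2, Gsdmd-/- 3, WT 2 or WT 3. The log2 fold change of Srf (0.02) lay between -0.032 and 0.10 when 1 library was left out (-0.0024 without Gsdmd-/- 4, -0.032 without WT 2 and -0.028 without WT 3) and was -0.13 without both WT 2 and WT 3, where that of Egr2 (0.06) was -0.044. Without both, the median log2 fold change was 0.17 for the AP-1 genes, -0.13 for the other immediate-early genes, -0.17 for the SRF and MRTF targets, -0.10 for the MYC targets, 0.04 for the p53 targets and 0.01 for the heat shock genes, against -0.09, 0.05, 0.03, 0.05, 0.08 and -0.13. When 1 library was left out, the medians of the other immediate-early genes (-0.06 to 0.16), the SRF and MRTF targets (-0.08 to 0.16) and the MYC targets (-0.02 to 0.14) lay on both sides of 0. Sign changes also occurred for the MYC, MAX and MXD network (-0.021 without Gsdmd-/- 4), the SRF cofactors and EGR corepressors (-0.013 without Gsdmd-/- 2) and the ERK genes (0.0022 without WT 4). The p53 median was 0.025 without Gsdmd-/- 2 or WT 4, and the heat shock median was -0.057 without WT 4. Without a filter the AP-1 median was 0.016. The share of all tested genes called at an adjusted p under 0.05 (0.349%) was 2.26% with DESeq2, 0.194% with the replicate block, 1.21% without both WT 2 and WT 3, and between 0.106% and 0.640% when 1 library was left out. The cause was not tested.

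The labels give both genotypes replicate numbers 1 to 4. Same-numbered libraries deviated from their group means with correlations of 0.0268, 0.182, 0.0412 and -0.201 over genes, so the pairing was not taken as shown. With the replicate block, 2 early genes (Egr1 and Ier2) and 3 related list genes (Fos, Dusp1 and Zfp36) were called at an adjusted p under 0.05. The number of related list genes at the cutoff of the study (16) lay between 11 and 18 in all 16 alternatives, and the log2 fold change of Gsdmd between -2.39 and -2.08. Requiring at least 10 counts in every library left Egr3 and Nr4a1 untested.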
